A study of Rattus norvegicus with 5 samples.

Results

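The genes described here are guidance ligands and receptors of the Eph, ephrin, Slit, Robo, netrin and Unc5 families, with the netrin receptors Dcc and Neo1. They were chosen by gene symbol alone, and 40 of the 33014 gene symbols of the deposited table matched. The samples were cultures of dissociated dorsal root ganglia (DRG), which hold the cell bodies of sensory neurons with their glia. The ganglia came from wild-type (WT) Sprague Dawley rats of postnatal day 10, pooled from a litter of 10 pups, and cells were plated at 5000 per well. All cultures received PBS, a vehicle, after 1 day and were lysed after 8 days of culture, with 3 wells pooled for each of the 5 libraries. There was thus 1 group with replicates 1 to 5 and no second condition. The labels do not say that the replicates came from separate preparations, so the spread between them, and every p-value, may be technical.

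Guidance molecules steer growing axons by attraction or repulsion and also act in adhesion, synapse formation and vessel growth. Eph receptors are receptor tyrosine kinases that bind ephrins on neighbouring cells. Ephrin-A ligands are held in the membrane by a lipid (GPI) anchor, ephrin-B ligands span it, and signals can pass into both cells. Slits are secreted proteins that repel axons through Robo receptors, and Slit2 is known to promote the branching of sensory axons. Netrin-1 attracts axons through Dcc and repels them through Unc5 receptors, whereas netrin-G proteins are membrane anchored and bind a separate set of ligands.

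The libraries held between 21596608 and 27913098 estimated reads. Values are TPM, in which reads are divided by effective transcript length and scaled to the same total in every library, so levels can be compared between genes. Markers of neurons (6 of 6), Schwann cells (6 of 6), satellite glia (3 of 3), fibroblasts (5 of 5) and macrophages (4 of 4) were all at 1 TPM or more in every library. Of the endothelial and mural markers 2 of 5 were, Cdh5 and Acta2, while Cldn5, Pecam1 and Rgs5 were not. Of the spinal cord markers 1 of 4 was, Olig1 at 6.79 ± 0.986 TPM (SD, n = 5), and Mog, Opalin and Slc32a1 were under 1 TPM on average. The libraries hold RNA of all these cells together and do not show which cell type expressed a guidance gene. In such bulk samples fewer cells of a type and less RNA per cell cannot be told apart.

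Most guidance genes were expressed, and a few members carried much of the family's RNA. A gene was called detected at 1 TPM or more in every library. By this rule 29 of 40 members were detected (72.5%), against 41.3% of all genes in the table. The ephrin-B ligand gene Efnb1 was the highest, at 66.0 ± 1.91 TPM (SD, n = 5), followed by the netrin-G gene Ntng2 at 57.0 ± 3.77 TPM. The next were the netrin receptor gene Unc5b (28.5 ± 1.28 TPM), the receptor gene Ephb3 (28.0 ± 1.73 TPM) and the ligand gene Efna1 (21.9 ± 1.19 TPM). These 5 genes held 49.9% ± 0.577 (SD, n = 5) of the summed TPM of all members. Of the 11 undetected members, 8 stayed under 1 TPM in every library, and Dcc, Efna3 and Efnb3 reached it in 3, 2 and 1 libraries.

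**Figure D1:**
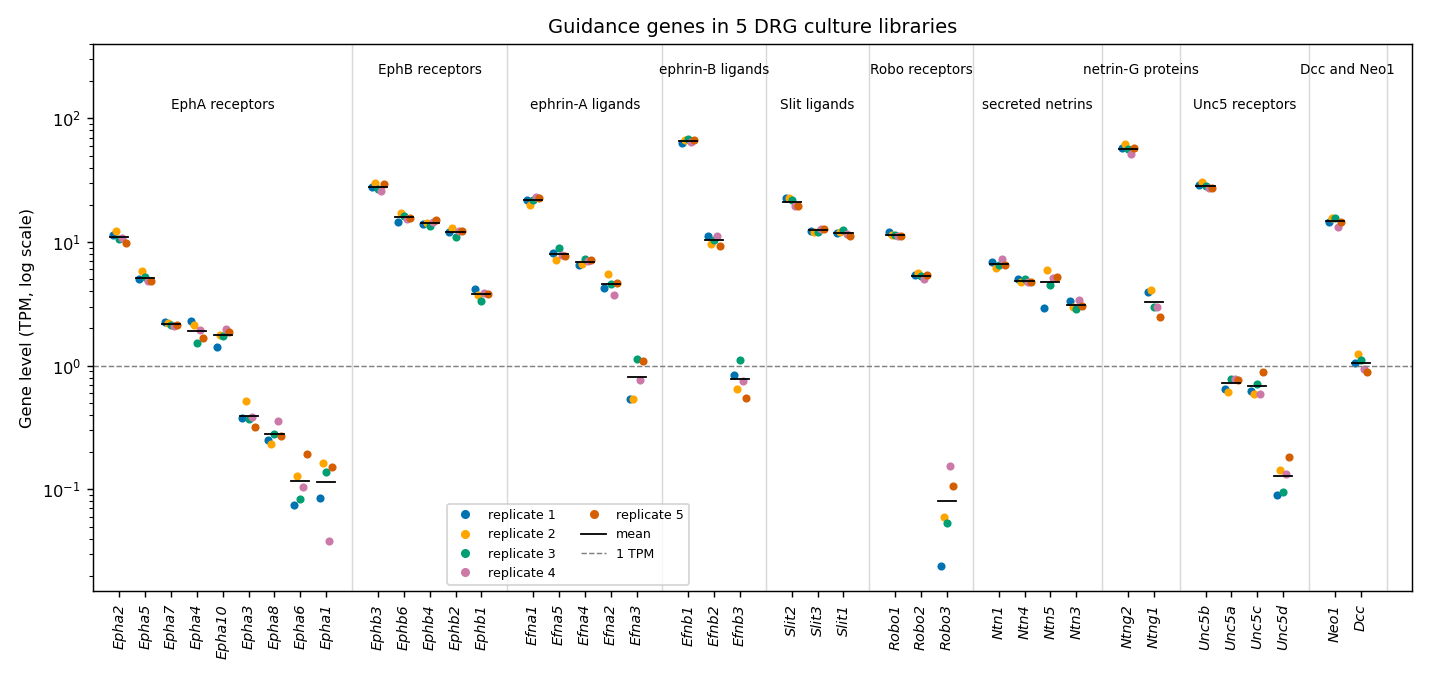
TPM (log axis) of each of the 40 members in the 5 libraries, grouped by class and ordered by mean; points are libraries, black bars are means and the dashed line is 1 TPM. Efnb1 (66.0 TPM) and Ntng2 (57.0 TPM) stand highest, and 11 members have at least 1 library under the line.

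Against the typical expressed gene, most members were low. The median detected gene was at 20.4 ± 0.183 TPM (SD, n = 5). Log2(TPM + 0.1) of each gene was set against that median in its library and tested with limma over 15492 genes of mean TPM of at least 0.5, 34 of them members. At an adjusted p under 0.05, 5 members lay above the median gene, where 42.4% of all genes fitted did, and 28 lay below, against 54.2%. Efnb1 lay above it in 5 of 5 libraries, 1.69 ± 0.04 higher on the log2 scale (SD over 5 libraries; limma adjusted p = 1.08e-11). So did Ntng2, with 1.47 ± 0.09 (limma adjusted p = 6.17e-10). Unc5b and Ephb3 followed at 0.48 ± 0.05 and 0.45 ± 0.09 (limma adjusted p = 2.07e-07 and 2.05e-06). Efna1 was above by 0.10 ± 0.09, in 4 of 5 libraries (limma adjusted p = 0.0326), and this call was lost when replicate 4 or replicate 5 was left out, each of which left 4 members above. The named transcripts of Efna1 summed to 16.3 of its 21.9 TPM on average, and Ephb3 had no named transcript. Slit2, at 0.05 ± 0.10, was the 1 fitted member with no call (limma adjusted p = 0.252). The other 6 members were under the filter.

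The 250 bases before the start of transcription are shown for 4 members, chosen as the highest member, an undetected Eph receptor and a high and a low member of 1 receptor family. They are reference sequences from RefSeq (build GRCr8, a newer build than that of the quantification), written 5′ to 3′, with CG dinucleotides in capitals.
Efnb1, chrX:68297279-68297528, plus strand: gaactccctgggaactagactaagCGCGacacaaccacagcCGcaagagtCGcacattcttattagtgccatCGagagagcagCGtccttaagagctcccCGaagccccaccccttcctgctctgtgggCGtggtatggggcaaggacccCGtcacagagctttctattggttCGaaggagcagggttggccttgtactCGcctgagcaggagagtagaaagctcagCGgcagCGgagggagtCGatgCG
Epha8, chr5:154476967-154477216, minus strand: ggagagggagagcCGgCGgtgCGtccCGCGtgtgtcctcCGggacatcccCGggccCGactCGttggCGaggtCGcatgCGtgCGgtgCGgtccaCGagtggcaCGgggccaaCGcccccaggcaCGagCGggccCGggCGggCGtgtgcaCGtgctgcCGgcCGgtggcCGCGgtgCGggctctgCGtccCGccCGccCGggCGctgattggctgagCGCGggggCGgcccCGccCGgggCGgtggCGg
Unc5b, chr20:29307271-29307520, minus strand: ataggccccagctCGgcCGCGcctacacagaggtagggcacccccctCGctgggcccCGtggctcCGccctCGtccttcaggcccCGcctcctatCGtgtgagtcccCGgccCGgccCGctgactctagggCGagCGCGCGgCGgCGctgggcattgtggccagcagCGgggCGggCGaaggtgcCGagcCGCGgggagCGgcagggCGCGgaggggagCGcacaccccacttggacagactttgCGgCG
Unc5a, chr17:9675664-9675913, minus strand: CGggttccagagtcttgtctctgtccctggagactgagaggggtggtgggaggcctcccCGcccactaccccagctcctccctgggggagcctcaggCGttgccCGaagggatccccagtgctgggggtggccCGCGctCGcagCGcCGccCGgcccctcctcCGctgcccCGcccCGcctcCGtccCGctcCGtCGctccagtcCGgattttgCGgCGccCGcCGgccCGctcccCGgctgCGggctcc
The highest member, Efnb1, had 15 CG dinucleotides in this window, and the undetected Epha8 had 40. Unc5b and the undetected Unc5a had 30 and 25. A promoter was matched for 32 members, and the observed over expected CG ratio was at least 0.6 in 22 of them (68.8%), against 44.2% of 19769 genes with a promoter in the table. Among undetected members the ratio passed in 7 of 8 (87.5%), and among all undetected genes in 16.1%. Among detected members it passed in 15 of 24 (62.5%), and among all detected genes in 69.0%. These shares describe the reference sequence, and their difference was not tested.

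**Figure D2:**
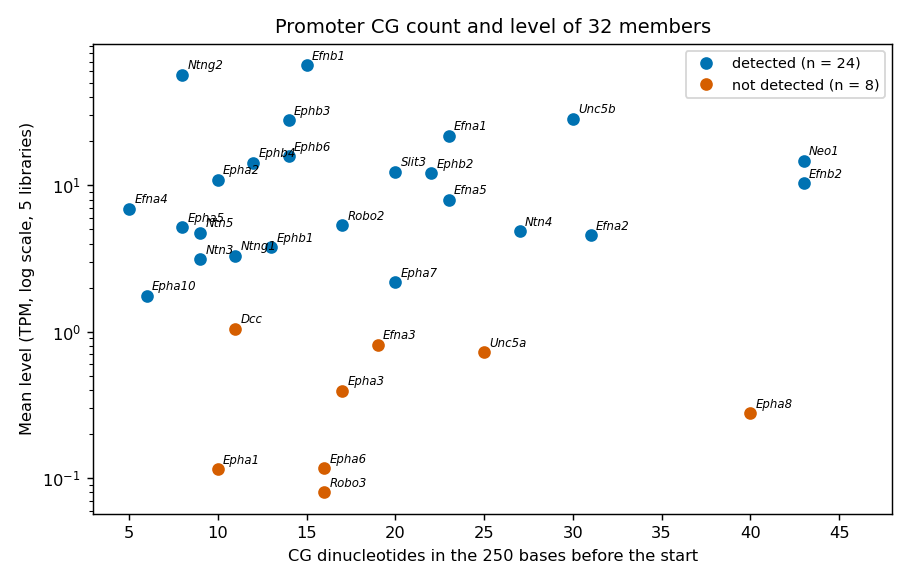
Mean TPM over 5 libraries (log axis) against the number of CG dinucleotides in the 250 bases before the start, for the 32 members with a promoter in the RefSeq table; blue points are detected and red-orange points undetected members. The undetected Epha8 (40 CG) and Unc5a (25 CG) lie to the right of Efnb1 (15 CG), the highest member.

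Summed by class, ephrin-B ligands and EphB receptors were the highest, at 77.1 ± 1.53 and 73.9 ± 3.11 TPM (SD, n = 5). They were followed by netrin-G proteins at 60.3 ± 4.22, Slit ligands at 45.5 ± 1.60 and ephrin-A ligands at 42.1 ± 1.57 TPM. Unc5 receptors summed to 30.1 ± 1.15, EphA receptors to 22.9 ± 1.55 and secreted netrins to 19.4 ± 0.906 TPM. Robo receptors and the pair of Dcc and Neo1 were lowest, at 16.9 ± 0.479 and 15.8 ± 1.15 TPM. Class sums were compared within libraries as 6 log2 ratios, each tested with an exact sign-flip permutation test (two-sided). The smallest p that this exact permutation test allows over 5 libraries, with 32 sign patterns, is 0.0625, and every class ratio reached it. A p of 0.05 is out of its reach, so each ratio is given with its spread.

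**Figure D3:**
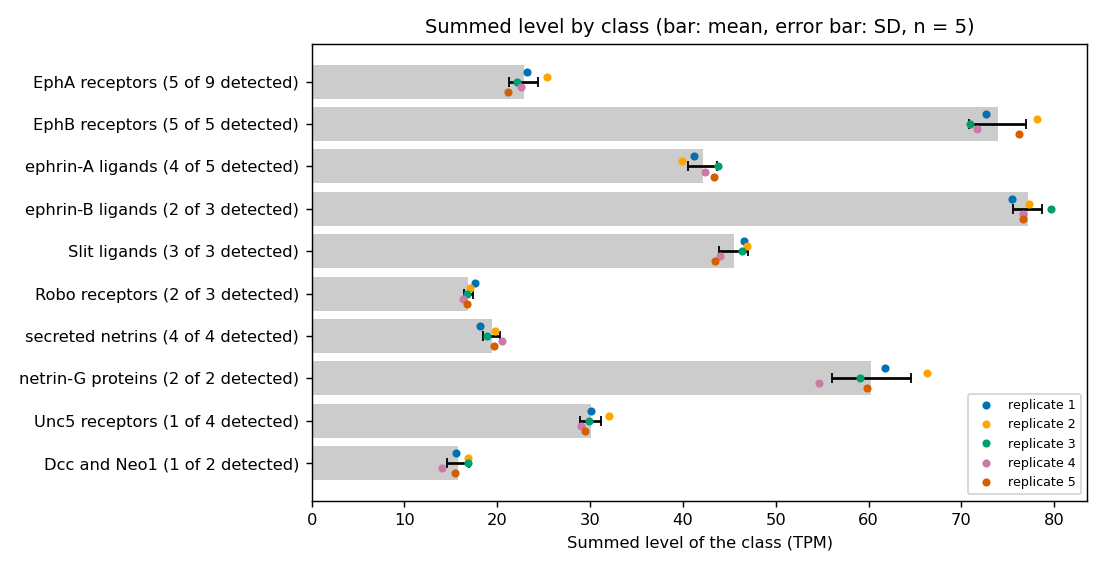
Summed TPM of each class; bars are means, error bars SD over 5 libraries and points single libraries, with the number of detected members beside each class name. Ephrin-B ligands (77.1 TPM) and EphB receptors (73.9 TPM) are highest, and Dcc with Neo1 (15.8 TPM) lowest.

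EphB receptor genes, whose products mainly bind ephrin-B ligands, were all detected (5 of 5). Ephb3 stood at 27.9, 29.8, 26.8, 25.8 and 29.5 TPM in replicates 1 to 5. It was apart from every other EphB gene in all libraries. Ephb6, whose kinase domain is known to be inactive, was at 14.5, 17.3, 16.3, 15.4 and 15.7 TPM, and Ephb4, known for its part in vessel formation, at 14.1, 14.3, 13.5, 14.5 and 14.9 TPM. The ranges of these neighbours overlapped, with a log2 ratio of Ephb4 over Ephb6 of -0.15 ± 0.12 (SD, n = 5; exact sign-flip permutation p = 0.0625). With named transcripts alone that ratio was -5.40, since the 1 named transcript of Ephb4 held 0.347 of its 14.3 TPM. Ephb2, a receptor of axons and synapses, was at 12.01, 13.1, 10.9, 12.2 and 12.2 TPM, 2.30-fold below Ephb3 (log2 -1.20 ± 0.08). Ephb1 was the lowest, at 4.15, 3.71, 3.34, 3.86 and 3.82 TPM, 3.14-fold below Ephb2 (log2 -1.65 ± 0.10).

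EphA receptor genes were lower and more uneven, with 5 of 9 detected. Epha2, a receptor best known from epithelia, led at 11.3, 12.2, 10.6, 10.8 and 9.75 TPM and held 47.8% ± 1.06 of the class sum. Epha5, a receptor of neurons, followed at 5.07, 5.88, 5.19, 4.83 and 4.82 TPM, and each of these genes was apart from the next. Epha7 stood at 2.27, 2.23, 2.14, 2.10 and 2.14 TPM. Epha4, which binds ephrins of both types, was at 2.30, 2.14, 1.52, 1.95 and 1.67 TPM, and its range overlapped with Epha7 (log2 -0.19 ± 0.20; lower in 4 of 5 libraries; exact sign-flip permutation p = 0.125). Epha2 exceeded Epha4 by 5.52-fold (log2 2.46 ± 0.17; 1.82 without length normalization). Epha10, another receptor without kinase activity, was at 1.76 ± 0.209 TPM (SD, n = 5) and its range overlapped with Epha4. Its 3 named transcripts summed to only 0.163 TPM on average, so the source of most of this level is not known here.

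The other EphA receptor genes stayed under 1 TPM in every library. Epha3 was at 0.377, 0.516, 0.371, 0.385 and 0.320 TPM, 10.7-fold below Epha5 (log2 ratio of Epha5 over Epha3 3.42 ± 0.11), and rested on 23 to 40 reads per library. Epha8 ranged from 0.235 to 0.356, Epha6 from 0.0747 to 0.194 and Epha1 from 0.0386 to 0.162 TPM. The named transcripts of Epha8 and Epha6 were listed at 0 in every library, so the source of their levels is not known here. These levels are close to the limit of what the libraries resolve: Epha1 had 2 to 7 reads per library. In the reference table Epha1 overlaps Zyx, which was at 73.4 TPM, and the strand setting of the quantification is not known. The EphA sum lay below the EphB sum by 3.24-fold (log2 -1.69 ± 0.09; 5 of 5 libraries). That ratio was -0.63 when only transcripts named in the reference table were summed, among which Ephb3 has none and Ephb4 falls to 0.347 TPM. It was -3.03 between the medians of the members and -0.80 on reads without length normalization, over members with recovered reads. Ephb3 and Ephb4 are among those left out of the last value.

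Ephrin-B ligand genes were dominated by Efnb1. It stood at 63.5, 67.0, 68.2, 64.7 and 66.8 TPM, on 2667 to 3368 reads per library, and held 85.6% ± 1.36 of the class sum. Efnb2, a ligand known from arteries and from axons, was at 11.2, 9.60, 10.3, 11.2 and 9.32 TPM, 6.36-fold below Efnb1 (log2 ratio of Efnb1 over Efnb2 2.67 ± 0.15). Efnb3 was not detected by the rule, at 0.841, 0.652, 1.12, 0.753 and 0.545 TPM, and 1 library, replicate 3, passed 1 TPM. It rested on 18 to 39 reads per library and lay 12.1-fold below Efnb2 (log2 ratio of Efnb2 over Efnb3 3.59 ± 0.30).

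Ephrin-A ligand genes were detected in 4 of 5 cases. Efna1, a ligand of Epha2 among others, led at 21.8, 20.0, 21.7, 23.1 and 22.7 TPM. Efna5, a repellent of many axons, followed at 8.12, 7.21, 8.96, 7.83 and 7.78 TPM, 2.72-fold below Efna1 (log2 ratio of Efna1 over Efna5 1.44 ± 0.11). Its range overlapped with that of Efna4, which was at 6.90 ± 0.321 TPM. Efna2 was at 4.27, 5.53, 4.60, 3.70 and 4.69 TPM, 1.75-fold below Efna5 (log2 ratio of Efna5 over Efna2 0.80 ± 0.27). Efna3 ranged from 0.535 to 1.12 TPM, with replicates 3 and 5 above 1 TPM.

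Between the ephrin classes, the ephrin-A sum lay 1.83-fold below the ephrin-B sum (log2 -0.87 ± 0.05; 5 of 5 libraries). On reads without length normalization the ratio was -2.83, but this leaves out Efna1, Efna2 and Efna3, whose reads were not recovered. All Eph receptors summed to 96.8 ± 4.08 TPM (SD, n = 5), 1.23-fold below all ephrins (log2 -0.30 ± 0.08; 5 of 5 libraries). The last ratio was -1.34 between the medians of the members and -1.09 with named transcripts alone.

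All 3 Slit genes were detected. Slit2 led at 22.6, 22.7, 21.7, 19.5 and 19.4 TPM, with replicates 4 and 5 below the others. Slit3 stood at 12.2, 12.1, 12.1, 12.9 and 12.8 TPM and Slit1 at 11.8, 12.03, 12.6, 11.7 and 11.2 TPM, and these ranges overlapped. Slit2 exceeded Slit3 by 1.70-fold (log2 0.76 ± 0.16) and Slit1 by 1.78-fold (log2 ratio of Slit1 over Slit2 -0.83 ± 0.09), and its range was apart from both. Without length normalization these ratios were 1.55 and -1.70.

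Robo receptor genes were led by Robo1, at 12.2, 11.4, 11.3, 11.1 and 11.2 TPM. Robo2 was at 5.41, 5.63, 5.35, 5.02 and 5.39 TPM, 2.11-fold below Robo1 in the combined table (log2 ratio of Robo1 over Robo2 1.08 ± 0.06). This direction turned with named transcripts alone (-1.83), where the 1 named transcript of Robo1 reached 1.45 TPM. Robo3, which is known from axons that cross the midline, was between 0.0240 and 0.156 TPM. Its 1 named transcript was listed at 0 in every library, and in the reference table Robo3 overlaps Robo4. The Robo sum lay 2.69-fold below the Slit sum (log2 -1.43 ± 0.04; 5 of 5 libraries). That ratio was -2.74 with named transcripts alone and -2.58 without length normalization. The second value leaves out Robo1, whose reads were not recovered.

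Secreted netrin genes were all detected at low levels, 4 of 4. Ntn1, the gene of the classical attractant netrin-1, was at 6.91, 6.17, 6.54, 7.25 and 6.57 TPM. Ntn4, a netrin of basement membranes, stood at 5.01, 4.76, 5.00, 4.76 and 4.79 TPM, 1.37-fold below Ntn1 in the combined table (log2 ratio of Ntn1 over Ntn4 0.45 ± 0.09). That direction turned with named transcripts alone (-5.63), because both named transcripts of Ntn1 were listed at 0. Ntn5 was at 2.91, 5.92, 4.47, 5.15 and 5.22 TPM, with replicate 1 below the others, and overlapped with Ntn4. Ntn3 was at 3.12 ± 0.244 TPM and its range overlapped with that of Ntn5.

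Netrin receptor genes were carried by 1 member of each type. Unc5b, a repulsive receptor also known from blood vessels, was at 28.7, 30.6, 28.3, 27.5 and 27.6 TPM and held 94.9% ± 0.796 of the Unc5 sum. Unc5a was at 0.649, 0.618, 0.786, 0.783 and 0.771 TPM and Unc5c at 0.626, 0.587, 0.706, 0.596 and 0.893 TPM, with overlapping ranges. Unc5b exceeded them by 35.0-fold and 37.0-fold (log2 ratio of Unc5a over Unc5b -5.13 ± 0.20 and of Unc5b over Unc5c 5.21 ± 0.26). Unc5a overlaps Hk3 in the reference table, a gene at 14.7 TPM. Unc5d ranged from 0.0898 to 0.182 TPM. The promoters printed above held 25 CG dinucleotides for Unc5a and 30 for Unc5b.

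In the class of Dcc and Neo1, Neo1, which binds netrins and repulsive guidance molecules (RGMs), was at 14.5, 15.6, 15.7, 13.1 and 14.6 TPM. Dcc, the classical netrin-1 receptor gene, was at 1.04, 1.25, 1.12, 0.934 and 0.889 TPM, so replicates 4 and 5 fell under 1 TPM. Neo1 exceeded Dcc by 13.0-fold (log2 3.70 ± 0.13). Summed netrin receptors exceeded secreted netrins by 2.36-fold (log2 1.24 ± 0.11) and Unc5 receptors exceeded Dcc with Neo1 by 1.91-fold (log2 0.93 ± 0.08), in 5 of 5 libraries each. Both directions turned between the medians of the members (-2.32 and -2.37), since the sums rest on Unc5b and Neo1. The first ratio was 1.84 with named transcripts alone and 3.59 without length normalization. Neither value holds the level of Ntn1, whose named transcripts were listed at 0 and whose reads were not recovered.

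Both netrin-G genes, whose products each bind their own NGL protein across synapses, were detected, at levels far apart. Ntng2 was at 57.8, 62.2, 56.1, 51.7 and 57.3 TPM and Ntng1 at 3.95, 4.09, 2.99, 3.00 and 2.50 TPM. The log2 ratio of Ntng1 over Ntng2 was -4.09 ± 0.25, a 17.0-fold difference. With named transcripts alone it was -3.77, and the named transcripts of Ntng2 summed to 35.1 of its 57.0 TPM on average. Among NGL genes, Lrrc4c, the ligand of netrin-G1, was at 7.49 ± 0.264 TPM and Lrrc4, the ligand of netrin-G2, at 3.95 ± 0.508 TPM. Lrrc4b, the gene of an NGL protein that is neither of these ligands, was at 56.2 ± 3.89 TPM.

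Over the 18 gene pairs compared, 16 had TPM ranges that did not overlap, and the exceptions were Epha4 with Epha7 and Ephb4 with Ephb6. The same share over pairs of all genes was not computed, so this count is not a result about these families. Folds against genes near or under 1 TPM depend on the pseudocount: with 1 in place of 0.1 the log2 ratio was 2.14 for Epha5 over Epha3, 2.67 for Efnb2 over Efnb3 and 2.94 for Neo1 over Dcc. For Unc5b over Unc5c it was 4.14 and for Unc5a over Unc5b -4.10, and the last was -5.86 without length normalization. Neighbours in the order of levels within a class overlapped in 10 of 30 cases, again without a share over all genes.

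Genes listed as acting with these families were mostly detected, against 41.3% of all genes in the table. The lists were chosen with earlier results of these data known, so their counts are not a result about guidance signalling. Of 23 other ligands and co-receptors 19 were detected, led by the adhesion receptor gene Mcam at 347 ± 34.5, the glypican gene Gpc1, a Slit-binding proteoglycan, at 229 ± 9.33 and the dystroglycan gene Dag1 at 220 ± 14.8 TPM (SD, n = 5). Rgmb and Rgma, ligands of Neo1, stood at 65.8 ± 2.24 and 12.1 ± 1.40 TPM, and Flrt3, a ligand of Unc5 receptors, at 135 ± 2.46 TPM. The undetected ones were Dscaml1, Dscam, Flrt1 and Hjv, at 0.418, 0.324, 0.183 and 0.0633 TPM on average. All 34 cytoplasmic effectors were detected, led by the small GTPase genes Cdc42, Rhoa and Rac1 at 644 ± 8.89, 591 ± 14.6 and 440 ± 5.38 TPM. Ngef, the exchange factor ephexin of EphA receptors, was at 30.8 ± 1.89 TPM, and the Slit-Robo GTPase activating protein genes Srgap2, Srgap1 and Srgap3 were at 57.2 ± 2.60, 17.2 ± 1.06 and 7.22 ± 0.282 TPM. The typical (median) gene was at 5.01 TPM among members, 12.1 TPM among ligands and co-receptors, 30.4 TPM among effectors and 0.297 TPM among all genes of the table.

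The semaphorins, plexins and neuropilins, another guidance system, were detected in 30 of 31 cases (96.8%) with a median of 20.5 TPM. Their sum of 1188 ± 31.9 TPM exceeded the 404 ± 9.94 TPM of the members by 2.94-fold (log2 ratio of members over semaphorin system -1.56 ± 0.01, SD, n = 5; exact sign-flip permutation p = 0.0625). The highest gene of the semaphorin system was at 515 TPM on average and held much of that sum. Between the medians of the genes the log2 ratio was -1.97.

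Levels differed little between libraries. Among detected members the highest library was at least 1.5 times the lowest for 3 of 29 genes, Ntn5 (2.04-fold), Ntng1 (1.64-fold) and Epha4 (1.51-fold), where 9.09% of all detected genes did so. The reads of 24 members could be taken from the transcript files and passed the filter on low counts, and their spread was tested against counting error alone with a chi-square test over 8871 genes. By an adjusted p under 0.05, 11 of 24 members varied beyond counting error (45.8%), against 31.6% of all genes tested. The 13 others included Efnb1 (adjusted p = 0.265), Robo2, Slit1, Slit3 and Dcc.

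Slit2 had the smallest p, on the most reads of the 11, and not a wide spread. Its biological coefficient of variation of 0.0582 was at percentile 60.4 of all genes tested, and those of Ephb6, Neo1 and Unc5b were at percentiles 45.4, 43.4 and 21.2. Those of Ntn5, Epha4, Efna5 and Efnb2 were higher, at percentiles 97.4, 88.8, 74.0 and 73.7. Epha2, Epha5 and Ephb2 were at percentiles 61.4, 69.8 and 50.8. The median coefficient was 0.0663 over the members tested and 0.0498 over all genes tested. The scaled reads of Slit2 were 2931, 2898, 2786, 2479 and 2479 in replicates 1 to 5 (adjusted p = 1.27e-13), so replicates 4 and 5 were lower than the others by under 1.2-fold. Ntn5 had the widest range among the 11, with scaled reads of 65.4, 127, 93.8, 105 and 106 (adjusted p = 0.00267), and replicate 1 was the low one. Epha4 was at 207, 172, 137, 179 and 147 scaled reads (adjusted p = 0.00712), with replicate 1 highest. The other members called were Neo1, Efnb2, Efna5, Ephb2, Epha2, Unc5b, Epha5 and Ephb6. Slit2 was the 1 gene of the 11 that stayed called whichever replicate was left out; without replicate 1 there were 6 calls and without replicate 2 there were 7.

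**Figure D4:**
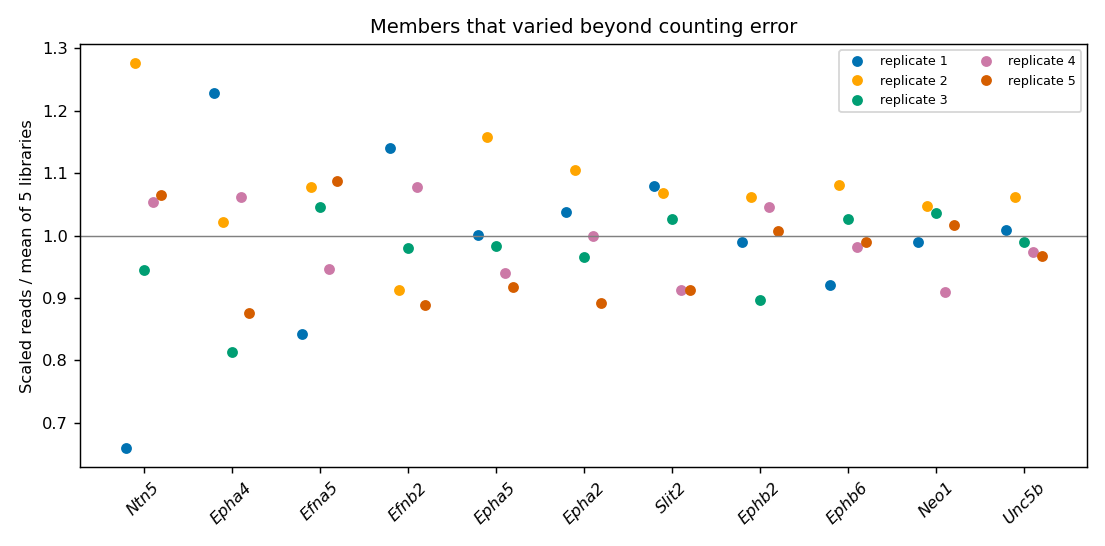
Scaled reads of each of the 11 members that varied beyond counting error, divided by the mean of the 5 libraries, ordered by biological coefficient of variation; points are libraries. Ntn5 spans the widest range with replicate 1 low, and replicate 2 is the highest library for 7 of the 11 genes, a share not computed over all genes.

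Replicate 2 was the highest library for 7 of these 11 genes (Epha2, Epha5, Ephb2, Ephb6, Neo1, Ntn5 and Unc5b) and the lowest for none. The same share over all genes called was not computed, so this count is not a result about these families. The cell type markers also differed by library. All 4 macrophage markers summed to 555 TPM in replicate 2 and to between 727 and 872 TPM in the others, and the 6 neuronal markers to 5768 TPM in replicate 2 and to between 5396 and 5509 TPM in the others. Replicate 2 also had the highest sums of the Schwann cell and fibroblast markers, 7305 and 1727 TPM, and the lowest of the satellite glia markers, 411 TPM. Replicate 1, the highest for Slit2, Efnb2 and Epha4, had the lowest sum of the 6 Schwann cell markers, 6266 TPM against 7047 to 7305 TPM, and the highest of the 5 endothelial and mural markers, 169 TPM against 82.9 to 152 TPM. That sum is mostly Acta2, at 149 TPM in replicate 1 and between 62.2 and 132 TPM in the others, while Cdh5 was at 19.6 and between 17.0 and 19.4 TPM. Pecam1 and Cldn5 were highest in replicate 3 and Rgs5 in replicate 5, with Cldn5 listed at 0 in replicate 4 and Rgs5 in replicates 2 and 4. The part of these marker differences in the spread of the guidance genes was not tested.

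The transcript files give an estimated share of each annotated form in the level of its gene. Shares are given for 10 detected members with at least 2 named transcripts and recovered reads. How well reads can be assigned between forms of like length was not tested. Ephb2 and Epha4 rested on 1 main form, with 93.6% ± 1.10 and 90.8% ± 10.04 (SD, n = 5) of their TPM. The lead transcript of Slit2, of 9234 bases, held 79.4% ± 4.93, and that of Epha5, of 3494 bases, held 67.2% ± 2.12. Of Unc5b, whose 2 named transcripts are 5830 and 5912 bases long, the shorter held 63.0% ± 7.72. Robo2 was the most divided by annotation, with 25 named transcripts, and its lead held 45.3% ± 1.87. For Neo1 the lead share was 41.5% ± 10.9, and it ranged from 29.8% to 53.4% between libraries. No shares are given for Efna1, Epha7, Epha10, Ntng1 and Ntng2, whose named transcripts did not add up to the gene level. Lead shares were 60.9% ± 2.60 for Efnb2, 60.5% ± 9.90 for Ntn5 and 58.4% ± 10.5 for Efna5. The lead is the highest by mean share and did not lead in every library. In replicate 1 the other form was the larger for Efna5 and Ntn5, whose leads held 45.8% and 47.4% there. In replicate 3 another Neo1 transcript held 35.8% against the 29.8% of the lead. A further Neo1 transcript held 28.3% in replicate 2 and 0% in replicates 1, 4 and 5.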

How the data were processed

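RNA of 5 culture libraries was sequenced after poly-A selection, per the labels' protocols. Per the submitters' processing notes, the authors' tools were Salmon 1.5.1, cutadapt 2.8 and Trim Galore 0.6.6, and the genome was mRatBN7.2. The order of steps, the strand setting and the way of summing by gene were not stated in these sources. The authors deposited gene-level TPM for 33014 symbols. Their quantification files list 98811 transcripts per library, each with a TPM and, per the file headers, an estimated count. The gene table was the main source. RefSeq tables of build GRCr8 named 67330 transcripts (68.1%). Reads of a gene were called recovered where its named transcripts came within 10% of the gene TPM in every library, which held for 19270 genes and 25 members; the deposited estimated counts were rounded for the count test. For the 15 other members the reads behind a value are not known here. Intervals of counting error assume independent reads.

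Each gene was set against the median detected gene with limma 3.58.1 (intercept only, pseudocount 0.1, mean TPM of at least 0.5, Benjamini-Hochberg over all genes fitted, two-sided). Spread was tested by chi-square with 4 degrees of freedom on reads scaled by edgeR 4.0.16 (TMM, filterByExpr), and dispersion was estimated with edgeR. Gene pair folds are on the log2(TPM + 0.1) scale, which understates the ratio of low genes. The members and the lists were chosen with earlier results of these data known. The text names every member, giving every library for the 2 highest of a class and for the genes of a pair, and the 3 highest and the undetected genes of the other lists; Rgma, Rgmb, Flrt3, Ngef and the genes Lrrc4 to Lrrc4c and Srgap1 to Srgap3 were added after their values were seen, as were the promoters printed. Alternatives covered the detection rule, pseudocount, filters, source of the levels, length normalization, scaling and leaving out each replicate.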

Additional observations from a re-analysis of the deposited data

Results flagged for a closer look

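In 71 sets of 5 library values (members, class sums, class ratios and lead transcript shares), 5 had 1 library far from the others by Dixon's test, where chance alone gives about 5% of sets. Robo1 was at 12.2 TPM in replicate 1 and between 11.1 and 11.4 TPM in the others. The log2 ratio of EphA over EphB receptors was -1.85 in replicate 5 and between -1.68 and -1.63 in the others. The lead transcript of Efnb2 held 65.5% in replicate 1 and between 59.4% and 60.3% in the others. The lead transcript of Epha4 held 73.2% in replicate 2 and between 92.3% and 97.8% in the others. The lead transcript of Ephb2 held 91.7% in replicate 4 and between 94.0% and 94.3% in the others.

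Robo4, the Robo gene of blood vessels, was not among the 40 symbols of the gene table used here. Its named transcripts in the quantification files summed to 0.474 TPM on average and to between 0.271 and 0.568 TPM in single libraries, on 19 to 30 reads per library, which is above what a count of 0 allows (3 reads).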

How the results depend on the processing

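No paired analysis was possible because all libraries belong to 1 group. The 29 detected members and the counts of the partner and effector lists stayed within 1.5 times under every detection rule tried. Members above the median gene numbered 3 with named transcripts alone (29 members fitted) and between 4 and 5 with a replicate left out. Without length normalization (24 members fitted), 7 members lay above it and 16 below. Members beyond counting error numbered 6 with a fold of at least 1.2 required, and between 6 and 9 with a replicate left out. Between medians of members, log2 ratios were -3.03 for EphA over EphB, -0.57 for ephrin-A over ephrin-B, -1.34 for Eph over ephrin, -1.21 for Robo over Slit, and turned to -2.32 for netrin receptors over netrins and -2.37 for Unc5 over Dcc and Neo1. With named transcripts alone the first 5 ratios were -0.63, -1.15, -1.09, -2.74 and 1.84. Without length normalization, over members with recovered reads, they were -0.80 for EphA over EphB, -2.83 for ephrin-A over ephrin-B, -2.58 for Robo over Slit, 3.59 for netrin receptors over netrins and 0.63 for Unc5 over Dcc and Neo1. Both alternatives use fewer members than the gene table. Reads without length normalization leave out Ephb3, Ephb4, Efna1, Robo1 and Ntn1, among others. Of the pairs, Robo1 over Robo2 (-1.83) and Ntn1 over Ntn4 (-5.63) turned with named transcripts alone, and 5 others of 17 moved by more than 1 SD, among them Ephb4 over Ephb6 (-5.40). Of 18 pairs 9 moved by more than 1 SD with a pseudocount of 1, and of the 9 pairs with recovered reads 7 did without length normalization, among them Epha2 over Epha4 (1.82) and Unc5a over Unc5b (-5.86). Leaving out a replicate moved no pair by more than 1 SD. The comparison with the semaphorin system was added after the data were seen. Depth limits Epha1, Epha3, Efnb3, Unc5a and Unc5d, each under 50 reads per library.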

Other observations

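Short annotated transcripts carried a large part of the TPM of some ephrin genes on few reads. For Efna5, a transcript of 768 bases held 41.6% ± 10.5 of the TPM (SD, n = 5) on 15 to 34 reads per library, and the transcript of 5457 bases held 93.2% of the estimated reads. For Efnb2, a transcript of 1158 bases held 39.1% ± 2.60 of the TPM on 45 to 70 reads per library, and the transcript of 4122 bases held 87.0% of the reads. For Epha5 the leading form depended on the quantity: the transcript of 3494 bases held 67.2% of the TPM and that of 8059 bases 54.1% of the reads. The order of libraries differed between the quantities too, since Efna5 was highest in replicate 3 by TPM and in replicate 5 by scaled reads.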
